A study of Mus musculus with 9 samples.

Results

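The 9 genes described here, Cap1, Gdpd3, Hddc3, Abhd1, Zan, Galc, Mid1, Hspb7 and Tnfsf13os, were chosen by their measured expression, since at least 1 probe set of each differed many-fold between colonic mucosa of mice without gastrin and of wild-type mice. They belong to no common family. Of the 18193 genes on the arrays they are 9, and 18 of the 34945 probe sets annotated to 1 gene belong to them. The samples were 3 arrays of mice lacking the gastrin gene (Gas-/-, GasKO below), 3 of mice carrying the hGas transgene (hGAS) and 3 of wild-type mice (WT). All mice were C57BL/6 males aged 6 weeks, and their colonic mucosa was lifted off with buffered saline injected beneath it. The labels name neither the promoter of the transgene nor the backcross of the knockout, and they do not say whether the arrays of a group are separate mice, so p-values measure only the spread between these samples.

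As background, Cap1 encodes a protein that recycles actin monomers from filaments, and Mid1 a ubiquitin ligase bound to microtubules. Gdpd3 encodes a phosphodiesterase that makes lysophosphatidic acid, and Galc the lysosomal enzyme that breaks down galactosylceramide, a lipid best known from myelin. Hddc3 encodes a small hydrolase of the HD domain family, Abhd1 belongs to the alpha/beta hydrolases, and RefSeq lists mouse Abhd1 as a transcribed pseudogene. Zan encodes zonadhesin, a sperm protein that binds the egg coat, and Hspb7 a small heat shock protein known from heart and skeletal muscle. Tnfsf13os is annotated as a long non-coding RNA, and its name places it opposite Tnfsf13.

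RefSeq (GRCm38.p6) gave the sequence before a gene start for 7 of the 9 genes. The windows of Cap1 and Gdpd3, which had the largest positive differences in GasKO, and of Zan and Galc, which were at background there, are shown so that sequences beside opposite shifts can be read together. Each is the 250 bases before the start, written 5′ to 3′ along the gene, and capitals mark a match to a CCAAT box (CCAAT) or a GC box (GGGCGG) on either strand.
Cap1 (chr4:122886077-122886326, minus strand): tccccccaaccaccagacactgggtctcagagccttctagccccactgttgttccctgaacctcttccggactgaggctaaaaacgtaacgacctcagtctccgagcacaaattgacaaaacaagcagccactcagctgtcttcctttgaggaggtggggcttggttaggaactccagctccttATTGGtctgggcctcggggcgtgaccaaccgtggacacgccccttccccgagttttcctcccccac
Gdpd3 (chr7:126766164-126766413, plus strand): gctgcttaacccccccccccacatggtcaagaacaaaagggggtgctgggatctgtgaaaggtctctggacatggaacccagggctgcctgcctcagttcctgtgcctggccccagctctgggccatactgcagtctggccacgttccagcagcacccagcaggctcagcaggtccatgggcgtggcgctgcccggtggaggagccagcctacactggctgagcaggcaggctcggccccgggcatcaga
Zan (chr5:137477065-137477314, minus strand): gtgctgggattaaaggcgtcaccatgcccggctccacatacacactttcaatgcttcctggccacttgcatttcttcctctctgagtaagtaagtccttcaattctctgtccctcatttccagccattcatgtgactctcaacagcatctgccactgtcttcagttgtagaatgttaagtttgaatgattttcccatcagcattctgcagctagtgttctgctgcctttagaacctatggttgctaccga
Galc (chr12:98259460-98259709, minus strand): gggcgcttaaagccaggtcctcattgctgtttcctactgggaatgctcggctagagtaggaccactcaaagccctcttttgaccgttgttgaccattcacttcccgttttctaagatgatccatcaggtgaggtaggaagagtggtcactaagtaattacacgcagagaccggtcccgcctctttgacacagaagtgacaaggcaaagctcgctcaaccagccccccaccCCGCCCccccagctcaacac
The Cap1 window held 1 CCAAT box, which 33.8% of 32851 such mouse windows hold, and the Galc window held 1 GC box, which 32.7% hold. The Gdpd3 and Zan windows held neither motif, and none of the 4 held TATAAA, which 12.4% hold on either strand. The motifs searched do not overlap each other, and a match describes letters only.

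Values are log2 GCRMA values, so a difference of 1 is a 2-fold change. To place them, 10 genes of tissues that were not sampled, such as lens, retina and pituitary, read between 1.97 and 3.81 on all 9 arrays, and a value under 4 is called background below. The array medians lay between 4.13 and 4.16, and all 14 epithelial markers were well above background, with a mean level of 12.85 to 12.92 in GasKO, 12.96 to 13.05 in hGAS and 12.62 to 12.92 in WT arrays. The single Gast probe set was at background, at 2.08 ± 0.08 in GasKO, 1.95 ± 0.01 in hGAS and 1.96 ± 0.02 in WT (SD, n = 3 each), so it checks neither genotype. Gapdh is measured near both ends of its transcript, and its 3′ minus 5′ value, a sign of RNA quality, was -0.117 to -0.0885 in GasKO and -0.154 to -0.0683 in hGAS, against -0.176 to -0.138 in WT arrays. The same value of actin was 0.872 to 0.938 in GasKO and 0.879 to 0.938 in hGAS, against 0.763 to 0.888 in WT arrays. Their part in the differences below was not tested. In bulk tissue, fewer cells of a type and less RNA per cell cannot be told apart.

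Cap1, Gdpd3, Hddc3 and Abhd1 were higher in GasKO than in both other genotypes. These values chose the genes, so they are given as a description and without a test. Cap1 read 11.74, 11.72 and 11.82 on the GasKO arrays, 6.56, 6.52 and 6.53 on the hGAS arrays and 6.54, 6.80 and 6.80 on the WT arrays. The GasKO mean of 11.76 ± 0.05 stood 33.1-fold above the WT mean of 6.71 ± 0.15 (SD, n = 3 each). Gdpd3 read 9.21, 9.27 and 9.60 in GasKO, 4.80, 4.79 and 4.93 in hGAS and 4.71, 4.81 and 4.81 in WT. All 3 GasKO arrays lay far above the other 6, and the difference of 4.58 to WT was 24.0-fold.

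Hddc3 read 8.31, 8.38 and 8.34 in GasKO, against 4.61, 4.73 and 4.84 in hGAS and 4.55, 4.75 and 4.73 in WT. Its difference to WT was 3.67, or 12.7-fold, and the hGAS and WT arrays overlapped. Abhd1 read 8.36, 8.84 and 8.30 in GasKO, 5.31, 4.999 and 5.45 in hGAS and 5.40, 5.29 and 5.39 in WT, a difference of 3.14 or 8.81-fold between GasKO and WT. In WT these 4 genes averaged between 4.67 and 6.71, above the cutoff of 4. That cutoff does not by itself show signal, because a probe set of Bola2, a gene near Gdpd3, read 4.65 to 4.66 on every array. Whether Hddc3 and Gdpd3, at 4.67 and 4.78 in WT, gave signal there cannot be told.

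Zan, Galc and Tnfsf13os were at background in GasKO. Zan read 1.83, 1.89 and 1.86 in GasKO, against 7.24, 7.45 and 7.42 in hGAS and 7.64, 7.27 and 7.84 in WT. Its GasKO mean of 1.86 ± 0.03 was 5.72 below the WT mean of 7.58 ± 0.29 (SD, n = 3 each). Galc read 2.37, 2.40 and 2.45 in GasKO, 6.08, 5.80 and 5.75 in hGAS and 5.84, 5.75 and 6.09 in WT. Its difference between GasKO and WT was -3.49, and the hGAS and WT arrays overlapped. Tnfsf13os read 2.55, 2.59 and 2.61 in GasKO, 6.86, 6.97 and 7.12 in hGAS and 6.87, 6.87 and 6.90 in WT, a difference of -4.30. Folds against a group at background depend on where GCRMA sets the background.

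Hspb7 and Mid1 were lower in GasKO but kept values above 4. Hspb7 read 4.92, 4.03 and 4.65 in GasKO, 7.73, 7.78 and 7.53 in hGAS and 7.51, 7.53 and 7.83 in WT. Its GasKO mean of 4.53 ± 0.46 had the widest spread of the 9 genes in that genotype, and it was 8.53-fold lower than the WT mean of 7.63 ± 0.18 (SD, n = 3 each). Mid1 read 4.59, 4.79 and 4.59 in GasKO, 6.99, 6.71 and 4.88 in hGAS and 7.56, 7.93 and 7.31 in WT. The GasKO arrays of Mid1 agree closely, the WT arrays lie well above them, and hGAS replicate 3 lies near the GasKO level.

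The brightest probe sets of the 9 genes ranked between 4 and 50 of 19822 tested probe sets by size of the GasKO minus WT difference. For 8 of the 9 it was at least 3, a size that 0.237% of tested probe sets reached. GasKO arrays did not overlap WT or hGAS arrays in any of the 9, where 30.6% of tested probe sets did not overlap between GasKO and WT. The genes were listed for this contrast, so nothing is read from these shares. By their lower group, 3 of the 9 genes (Zan, Galc and Tnfsf13os) lay at background, and the other 6 had a mean of at least 4 in every genotype. By the cutoff of 4, the description as on-off holds for those 3 in GasKO. For the other 6 the cutoff does not separate off from low. Lower-group means of Gdpd3, Hddc3, Mid1 and Hspb7 lay between 4.53 and 4.78.

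**Figure D1:**
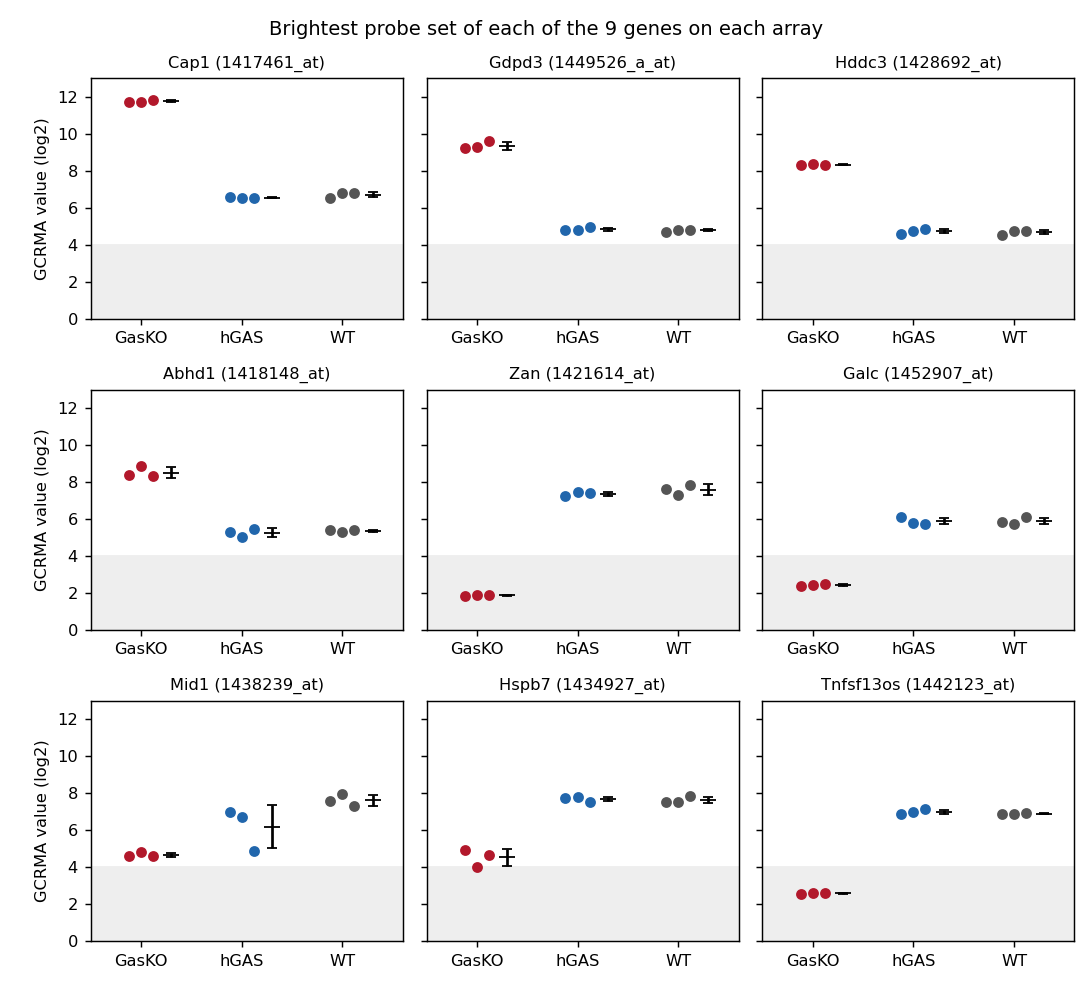
Log2 GCRMA value of the brightest probe set of each gene on each of the 9 arrays, with bars for mean ± SD (n = 3) and grey for values under 4. The GasKO arrays stand apart in all 9 panels, and the lowest hGAS point of Mid1, replicate 3, lies at 4.88, near the GasKO arrays.

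Among the 6 genes with several probe sets, a second probe set with a difference like that of the brightest was found for Cap1 only. Its second probe set read 10.14, 10.24 and 10.23 in GasKO, 5.12, 4.83 and 4.85 in hGAS and 4.89, 4.91 and 5.16 in WT. The difference of 5.22 between GasKO and WT matched the 5.05 of the first, although both levels were lower. Both probe sets carry the same source sequence in the annotation, so they are not independent designs.

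Hspb7 had 3 probe sets above background, and they disagreed. The second read 5.44, 5.50 and 5.38 in GasKO, 5.49, 5.71 and 5.58 in hGAS and 5.28, 5.50 and 5.75 in WT, so the 3 genotypes overlapped and the difference to WT was -0.07. The remaining one read 4.30, 4.56 and 4.38 in GasKO, 5.44, 5.06 and 4.57 in hGAS and 4.39, 4.80 and 5.53 in WT. Its GasKO and WT arrays overlapped, with a difference of -0.49. These 2 probe sets share a source sequence, which is not that of the probe set with the 8.53-fold change. With all 3 averaged, Hspb7 differed by -1.22.

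Hddc3, Galc, Mid1 and Tnfsf13os each had further probe sets that stayed at background in every genotype. These 6 probe sets read between 1.93 and 2.94 on all 9 arrays and did not pass the filter, so they neither agree nor disagree with the bright probe set. The silent Hddc3 probe set carries the same source sequence as the bright one, at 2.91 ± 0.01 in GasKO and 2.92 ± 0.02 in WT (SD, n = 3 each). The 2 silent Galc probe sets share a source sequence that differs from that of the bright one. Averaging a gene's probe sets gave a difference of 1.83 for Hddc3 and -2.14 for Tnfsf13os. Gdpd3, Abhd1 and Zan had 1 probe set each, so no second measurement of them was analysed here.

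**Figure D2:**
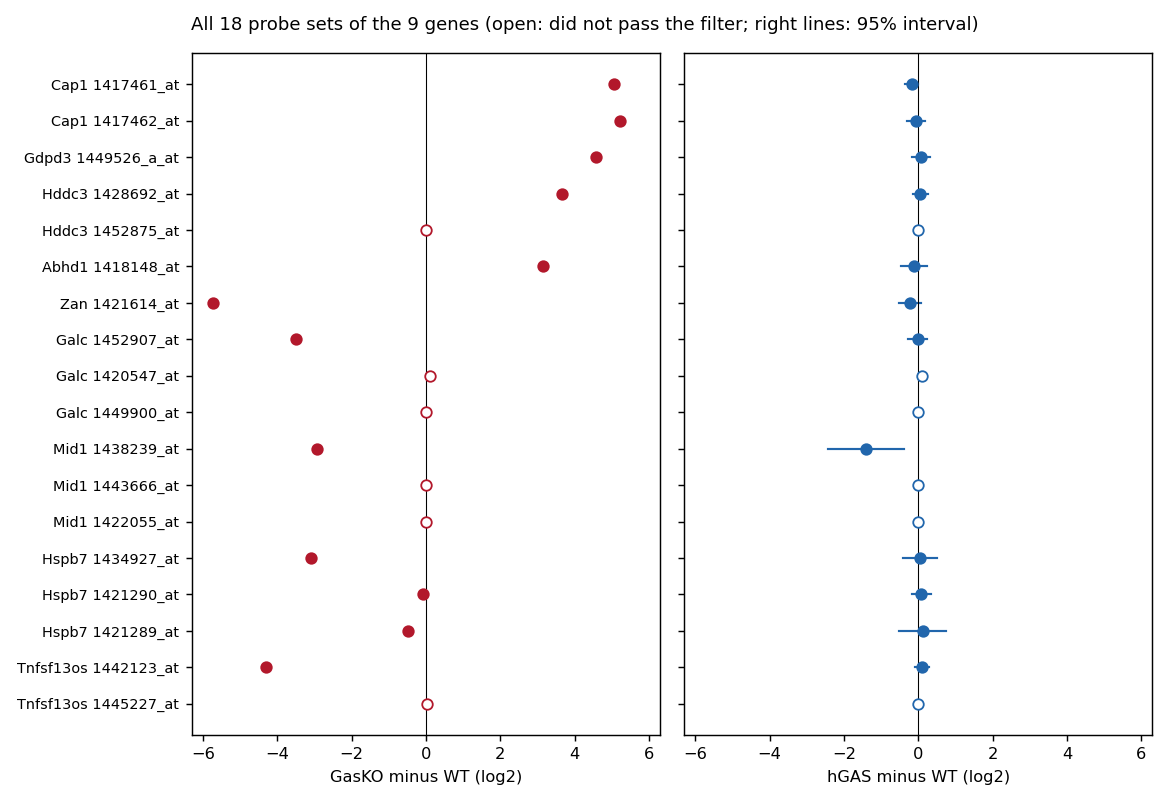
Difference of group means (log2) for all 18 probe sets, GasKO minus WT on the left and hGAS minus WT on the right, with 95% intervals on the right for the 12 that passed the filter. On the left only the 2 Cap1 probe sets move together, and the 6 open points lie near 0; on the right Mid1 is the widest interval.

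The comparison of hGAS with WT was not used to list the genes and asks whether the transgene goes with a change in any of them. It shares its WT arrays with the contrast above. Of the 12 probe sets that passed the filter, limma called 0 at an adjusted p under 0.05, and 2 had an unadjusted p under 0.05. Among all tested probe sets 0.873% were called and 13.6% had an unadjusted p under 0.05. Of these 12, 1 showed no overlap between hGAS and WT arrays, against 17.2% of tested probe sets. The median difference of the 12 was 0.02, and that of all tested probe sets 0.00.

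Mid1 had the largest difference, -1.41 in hGAS against WT with a 95% interval of -2.43 to -0.39 and a limma adjusted p of 0.20, or 0.104 with the replicate number as a block. All 3 hGAS arrays lay below all 3 WT arrays, at 6.99, 6.71 and 4.88 against 7.56, 7.93 and 7.31. Without hGAS replicate 3 the difference was -0.76 (adjusted p = 0.109). The hGAS SD of 1.15 was exceeded by 0.151% of tested probe sets. On that array 28 of 19822 probe sets lay at least 1.5 from both other hGAS arrays, compared with 9 and 7 on the others and 33 on WT replicate 3. The other Mid1 probe sets were at background and bear on neither value.

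The first Cap1 probe set was the other with a low unadjusted p, at 6.54 ± 0.02 in hGAS and 6.71 ± 0.15 in WT (SD, n = 3 each). The difference was -0.17 with a 95% interval of -0.34 to -0.0011, its adjusted p was 0.365, and the second Cap1 probe set gave -0.06 (interval -0.29 to 0.18). Zan differed by -0.22 (interval -0.51 to 0.08), Galc by -0.02 (-0.28 to 0.24) and Tnfsf13os by 0.10 (-0.08 to 0.28). Gdpd3 differed by 0.07 (interval -0.18 to 0.31), Hddc3 by 0.05 (-0.14 to 0.25) and Abhd1 by -0.11 (-0.46 to 0.24). For the brightest Hspb7 probe set the difference was 0.05 (-0.40 to 0.51). These intervals hold no difference as large as 1 for any of these genes, and GasKO differed from WT by more than 3 in the same bright probe sets. For Gdpd3 and Hddc3, whose signal in WT cannot be told, the intervals do not bound a fall. In each of the 9 genes hGAS arrays also stood apart from GasKO arrays, with hGAS minus GasKO at -5.22 for Cap1, 5.51 for Zan and 1.53 for Mid1, where 34.5% of tested probe sets did not overlap between these genotypes.

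Relatives of the 9 genes, meaning paralogs and pathway partners, were listed by symbol and not by their values, though with earlier results of these data known. Of 99 such genes with a probe set, 79 had tested probe sets, 137 in all. In GasKO against WT limma called 23 of them, 18 higher and 5 lower. This is 16.8% against 11% of all tested probe sets (5.74% higher and 5.25% lower). The 18 higher include Tnfrsf13c, which passed the filter through its GasKO arrays only, so its call adds no support to this share. In hGAS against WT 1 was called, or 0.73% against 0.873%, and with the replicate number as a block 4 were called. The medians were 0.00 in GasKO and 0.02 in hGAS, and 0.00 over all tested probe sets in both comparisons.

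Among the actin partners of Cap1, 5 of 28 probe sets (17.9%) rose in GasKO and none fell, where 5.74% of all tested probe sets rose. Pfn1, which encodes the actin monomer binder profilin, averaged 12.40 ± 0.09 in GasKO, 11.52 ± 0.05 in hGAS and 11.80 ± 0.20 in WT (SD, n = 3 each). GasKO minus WT was 0.60 (limma adjusted p = 0.0025). Coro1a, an actin-binding coronin of leucocytes, was higher by 0.74 and 0.65 in its 2 tested probe sets. Twf2, a twinfilin, was higher by 0.51 and the paralog Cap2 by 0.54, in 1 of 2 probe sets each. Without the replicate block, the relative called in hGAS against WT was Coro1a, at 7.82 in hGAS and 8.56 in WT (difference -0.74, adjusted p = 0.034). That call held in 1 of the 9 fits that left out an array. Of 6 tested B cell marker probe sets 4 rose in GasKO and 3 fell in hGAS, each against WT, with list levels of 5.45 to 6.03 in GasKO, 3.52 to 4.02 in hGAS and 4.78 to 5.31 in WT arrays. Their part in the result was not tested.

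Relatives of Gdpd3 held the largest single change among the 137 probe sets. Gdpd1, a paralogous lysophospholipase D, read 8.80, 8.83 and 8.60 in GasKO, 10.75, 10.68 and 10.85 in hGAS and 10.85, 10.82 and 10.95 in WT. The fall of 2.13 in GasKO was opposite in sign to the difference of Gdpd3, and all 3 GasKO arrays lay below the other 6. The second Gdpd1 probe set differed by -0.17 (adjusted p = 0.131), so Gdpd1 too had a disagreeing pair. Faah, which hydrolyses fatty acid amides, was higher in both tested probe sets, by 1.05 and 0.63. In all, 6 of 12 probe sets of this list were called, 5 higher and 1 lower, where 11% of all tested probe sets were called. Faah and Gpcpd1 each gave more than 1 of these calls. The others were Gpcpd1 (0.43 and 0.29), whose calls held in 3 and 1 of 9 leave-one-out fits, and Abhd4 (0.36), whose call held in 8.

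The lysosomal and sphingolipid relatives of Galc moved in both directions, with 4 probe sets higher and 4 lower of 24. Of all tested probe sets 11% were called. Glb1, the lysosomal beta-galactosidase, averaged 8.79 ± 0.08 in GasKO, 9.59 ± 0.07 in hGAS and 9.56 ± 0.12 in WT (SD, n = 3 each) and fell by 0.77 in GasKO against WT. Ugcg, which makes glucosylceramide, fell in 3 probe sets by 0.54, 0.51 and 0.36, calls that held in 9, 4 and 7 of 9 leave-one-out fits. Neu1, a lysosomal sialidase, was higher by 0.64 in 1 probe set, at 5.53 in GasKO, 5.01 in hGAS and 4.89 in WT. A second Neu1 probe set was also called higher, and that call held in 2 of 9 leave-one-out fits. Its difference ran from 0.23 to 0.34 across those fits. Gm2a, the activator of ganglioside breakdown, was higher by 0.32, a call that held in 4 of 9 leave-one-out fits. None of these relatives reached the size of the Galc difference.

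The smaller lists gave few calls. Beside Tnfsf13os, 2 of 6 probe sets were called higher in GasKO, where 5.74% of all tested probe sets were. Both were of receptors of the Tnfsf13 ligand family. Tnfrsf13b averaged 5.47 ± 0.23 in GasKO, 3.79 ± 0.46 in hGAS and 3.93 ± 0.22 in WT (SD, n = 3 each). GasKO minus WT was 1.54 (limma adjusted p = 0.0019), and the hGAS and WT means lay under 4, at background. The GasKO arrays of Tnfrsf13b were by themselves enough to meet the filter, so little is read from its call. Tnfrsf13c averaged 5.04 ± 0.41 in GasKO, 3.52 ± 0.11 in hGAS and 3.86 ± 0.03 in WT, and reached 4 on the GasKO arrays only. It therefore entered the test through the group where it is high, and its call is no support for a difference. Both receptors are carried by B cells, whose marker levels are given above. Samhd1, an HD domain dNTP hydrolase listed beside Hddc3, was higher by 0.64, and without GasKO replicate 1 its adjusted p was 0.0509. Ppp2ca, the phosphatase catalytic subunit that Mid1 is known to bring to degradation, was higher by 0.36, and the paralog Mid2 was not called. Of 13 probe sets for small heat shock proteins and partners of Hspb7 none was called in GasKO, and no relative of Zan passed the filter.

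**Figure D3:**
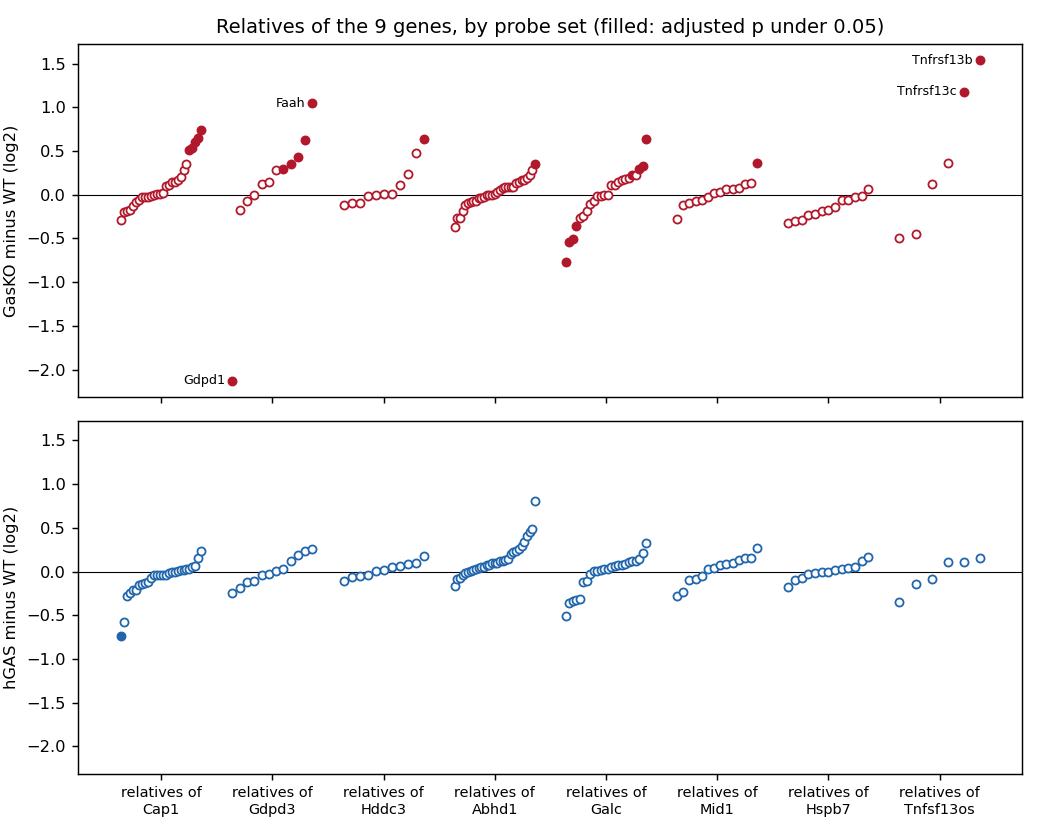
Difference of group means (log2) for each tested probe set of the relatives, by the gene they are listed with and sorted by size, with GasKO minus WT above, hGAS minus WT below and filled points for limma calls. Above, Gdpd1 at -2.13 and Tnfrsf13b at 1.54 lie farthest from 0, and below the only filled point is Coro1a at -0.74.

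Markers of the tissues in which these genes are best known were read beside them. All 9 testis and sperm markers stayed at background on all 9 arrays, between 2.28 and 3.51, on the same arrays that gave Zan a mean of 7.37 in hGAS and 7.58 in WT. Of 9 cardiac and skeletal muscle markers, 5 were at background on every array. In GasKO 2 of the 5 tested probe sets of this list were called lower, where 5.25% of all tested probe sets were. Both were of 1 gene, Tnnt2, a cardiac troponin. In the first it averaged 4.98 ± 0.54 in GasKO, 7.07 ± 0.30 in hGAS and 7.82 ± 0.58 in WT (SD, n = 3 each). The mean level of the list was 4.11 to 4.40 in GasKO, 4.29 to 5.66 in hGAS and 4.41 to 5.12 in WT arrays. The smooth muscle list was 11.8 to 12.0 in every genotype, and 0 of its 15 tested probe sets were called in GasKO against WT. Whether Hspb7 moved with Tnnt2 or with other muscle RNA was not tested.

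The genes beside each member on its chromosome were taken from the RefSeq gene order, 3 on each side. Of these 54 places 27 genes had a probe set, and 32 of their 49 probe sets passed the filter. In GasKO against WT 7 of the 32 were called, 6 higher and 1 lower, or 21.9% against 11% of all tested probe sets. Their differences lay between -0.51 and 0.75, far smaller than those of the members. Ppt1, a lysosomal thioesterase whose gene overlaps Cap1, averaged 9.31 ± 0.05 in GasKO, 8.47 ± 0.14 in hGAS and 8.56 ± 0.06 in WT (SD, n = 3 each), a difference of 0.75. Its second tested probe set was at 0.34 (adjusted p = 0.058). Beside Gdpd3, Coro1a rose as given above.

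Beside Hddc3, Man2a2, a Golgi mannosidase, was higher by 0.68 and Rccd1 by 0.66, and Fes, a tyrosine kinase, by 0.37 in 1 probe set. The other tested Fes probe set differed by 0.04 (limma adjusted p = 0.821). The call of Rccd1 held in 6 and that of Fes in 3 of 9 leave-one-out fits. Preb, which overlaps Abhd1, fell by 0.51 in 1 probe set and differed by -0.13 and -0.02 in the others. No tested neighbour of Zan, Galc, Mid1, Hspb7 or Tnfsf13os was called within this range, which held 7 tested probe sets for these 5 genes. Senp3, which overlaps Tnfsf13os, differed by 0.13 (adjusted p = 0.185). In hGAS against WT, fitted without the replicate block, Coro1a was the only neighbour called.

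Some places next to the members carry no probe set, so a wider range of the 3 nearest measured genes on each side was added after the data were seen. It gave 13 calls among 65 tested probe sets, 8 higher and 5 lower, or 20%. The added genes included Arhgef19 beside Hspb7, at 4.11 ± 0.14 in GasKO, 5.30 ± 0.14 in hGAS and 5.07 ± 0.07 in WT (SD, n = 3 each). Arhgef19 fell by 0.96 in GasKO against WT. Erdr1, which like Mid1 lies at the pseudoautosomal region, read 9.83, 9.07 and 9.88 in GasKO, 10.61, 10.11 and 10.40 in hGAS and 10.34, 10.48 and 11.66 in WT. Its difference of -1.23 had an adjusted p of 0.0465, and the call held in 1 of 9 leave-one-out fits. As background, Mid1 spans the pseudoautosomal boundary in C57BL/6 mice. Pop7 beside Zan fell by 0.42 and Eif4a1 near Tnfsf13os by 0.23, calls that held in 9 and 6 of 9 leave-one-out fits. Furin near Hddc3 was higher by 0.38 and Zbtb4 near Tnfsf13os by 0.30, and these calls held in 3 and 4 of 9. A dim probe set of Slx1b near Gdpd3, singled out after its values were seen, was not tested because it did not pass the filter. It read 2.16, 2.18 and 2.19 in GasKO, 3.72, 3.84 and 4.02 in hGAS and 3.33, 3.33 and 4.11 in WT.

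**Figure D4:**
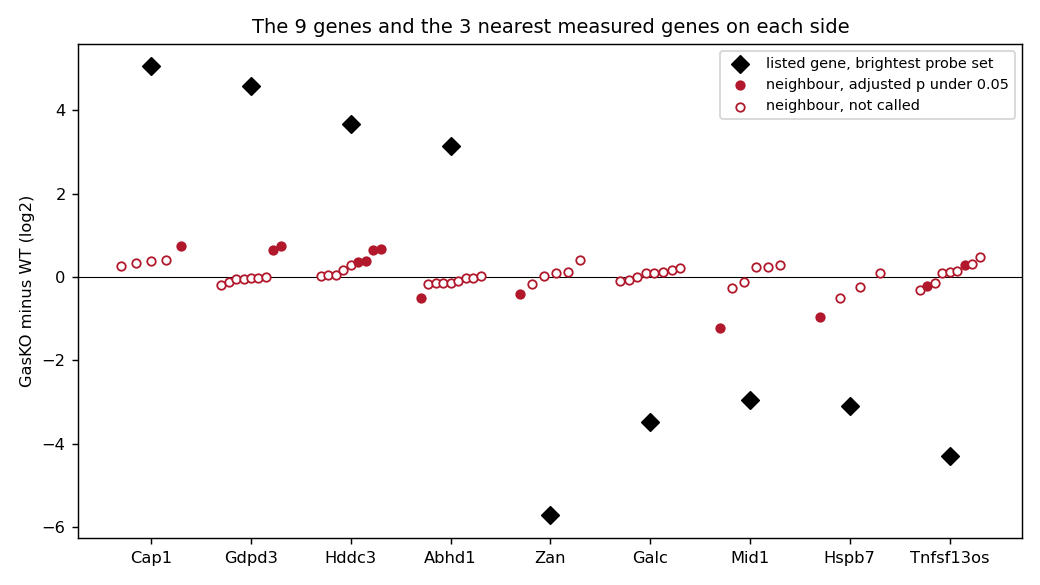
GasKO minus WT difference (log2) of the brightest probe set of each gene (black) and of the tested probe sets of the 3 nearest measured genes on each side (red, filled where limma called them), which are sorted by difference within each gene. The black points lie at least at 3.14 above 0 or -2.95 below it, and the red point farthest from 0 is Erdr1 at -1.23.

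The genes most like the members across the 9 arrays were ranked by the mean absolute difference between centred log2 values and the mean profile of the 4 higher or the 5 lower members. For the higher members these were BC018473 at 0.0886, Lsm12, an RNA-binding protein, at 0.117, and Serpina1b, a liver protease inhibitor, at 0.153. Lsm12 averaged 6.94 in GasKO, 2.76 in hGAS and 2.98 in WT. BC018473 averaged 2.84 in both hGAS and WT, and Serpina1b 2.02 and 2.08. By the cutoff of 4, these 3 genes were thus at background outside GasKO. The 4 members lay above that cutoff there, though whether Hddc3 and Gdpd3 gave signal cannot be told. For the lower members they were Ndel1 at 0.230, Mir1931 at 0.250 and Aadac at 0.283. Ndel1, a dynein regulator, averaged 3.69 in GasKO, 7.89 in hGAS and 8.05 in WT. Aadac, an esterase, averaged 5.50 in GasKO, 9.46 in hGAS and 9.42 in WT, and so stayed above 4 in GasKO. These genes were found by their values, so the match is a description.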

How the data were processed

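Total RNA of colonic mucosa was labelled and hybridised to 9 Affymetrix arrays, 3 per genotype. The deposited values are log2 expression values that the authors made with GCRMA, per the submitters' processing notes, and its version is not given in the sources used here. GCRMA models background from probe sequence, which pulls dim probe sets to a common low level and widens folds of genes near it. The number of arrays limits the precision. Probe sets were named from the platform annotation with symbols checked against RefSeq, and only those annotated to exactly 1 gene were used, without control probe sets. A probe set was tested where it reached 4 on at least 3 of 9 arrays.

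All 3 genotypes were fitted together with limma 3.58.1 (R 4.3.3, mean-variance trend), with Benjamini-Hochberg adjustment over all 19822 tested probe sets and a threshold of 0.05. The fit was tested on simulated data. The members, the lists of relatives and markers and the tests were chosen with earlier results of these data known. Relatives are named at most 4 per member by size among those called, and neighbours where called. Numbers were taken to pair 2 groups only where all 3 same-number correlations of deviations from group means were over 0.1. They were 0.136, -0.00373 and 0.136 for GasKO and WT, 0.0847, 0.153 and 0.219 for GasKO and hGAS, and 0.184, 0.114 and 0.194 for hGAS and WT. All are weak, and the rule was met for hGAS and WT only. The fit with the replicate number as a block is therefore given for that comparison where it changes a count. That fit held all 3 genotypes, so it also paired the GasKO arrays, for which the rule was not met. The alternatives were the filter, the scaling, averaging of probe sets, the trend, the groups fitted, the block and leaving out each array.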

Additional observations from a re-analysis of the deposited data

How the results depend on the processing

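In hGAS against WT no member probe set was called under any alternative run, including each of the 9 fits without 1 array (0 to 0). The count over all probe sets was 173, against 51 without the filter, 103 with a gene's probe sets averaged, 34 with only those 2 groups fitted and 362 with the replicate block. Leaving out 1 array gave 38 to 136. For relatives that count was 1, against 0 without the filter, 0 with only 2 groups fitted and 4 with the replicate block, and 0 to 2 without 1 array. With the block the adjusted p of Mid1 was 0.104. In GasKO against WT 2177 probe sets were called, against 1366 with 1 probe set per gene, 1276 with probe sets averaged and 1413 to 2167 without 1 array, the lowest without GasKO replicate 1. Relatives gave 23 calls, against 14 with 1 probe set per gene, 15 with probe sets averaged and 15 to 23 without 1 array, with 15 again without GasKO replicate 1. The first 2 of these settings test fewer probe sets. Neighbours gave 7, against 5 to 8 without 1 array and 13 with the wider range. The replicate block changed no other count by over 1.5 times. No called value changed sign. Of values with no call, the second Hspb7 probe set in GasKO against WT ran from -0.19 to 0.05 without 1 array. In hGAS against WT the second Cap1 probe set (-0.15 to 0.03), Hddc3 (-0.01 to 0.11), Abhd1 (-0.20 to 0.02), Galc (-0.12 to 0.08) and all 3 Hspb7 probe sets (-0.14 to 0.43) also took both signs. Probe sets under 4 hold only a level near background, so a change among low values there was not measurable.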

Other observations

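Other cell types of the mucosa were read from marker lists in GasKO against WT, and their part in the differences of the 9 genes and their relatives was not tested. Plasma cell markers gave 4 of 9 tested probe sets higher and 0 lower, and their mean level was 7.11 to 7.42 in GasKO, 6.52 to 6.90 in hGAS and 5.84 to 6.41 in WT arrays. Of these 4, Irf4 reached 4 on the GasKO arrays only and so passed the filter through them. B cell markers gave 4 of 6 higher in GasKO against WT and 3 of 6 lower in hGAS against WT. Of the B cell markers called in GasKO, Cr2 passed the filter only with its GasKO arrays. Myeloid markers gave 4 of 9 higher, at levels of 8.06 to 8.22 in GasKO, 7.57 to 7.97 in hGAS and 7.73 to 7.83 in WT arrays. Fibroblast markers gave 4 of 13 higher, epithelial markers 3 of 21, glial markers 1 of 6, adipocyte markers 1 of 3 and T cell markers 1 of 1, where 11% of all tested probe sets were called. In hGAS against WT the calls outside the B cell list were 1 epithelial probe set, higher, and 1 glial probe set, lower, where 0.873% of all were called.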
